A study of Mus musculus with 8 samples.

Results

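Notch receptors, ligands and target genes were examined in whole mouse hearts as a set of 10 genes taken by symbol from a table of 22518 genes. The set holds the receptors Notch1, Notch2, Notch3 and Notch4, the ligands Dll4, Jag1 and Jag2, and the transcriptional targets Hes1, Hey1 and Heyl. Each symbol had 1 row, and all 10 members passed the filter on low values. The hearts came from C57BL/6 mice at postnatal day 12. There were 4 libraries from wild type littermates and 4 from mice labelled as a PHD2/3 endothelial knockout. PHD2 and PHD3 are prolyl hydroxylases, the oxygen-dependent enzymes that mark hypoxia-inducible factors (HIF) for degradation. The labels name no Cre line, no time of deletion, no inducing agent and no sex, and they do not tie each library to its own animal. The p-values therefore reflect the spread of these libraries, which may be technical in part. The question of the comparison is what loss of these enzymes from the endothelium does to expression in the heart.

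Notch signalling runs between touching cells. A ligand of the Delta-like or Jagged family on the surface of a cell binds a Notch receptor on its neighbour, the receptor is cut by an ADAM protease and then by gamma-secretase, and the freed intracellular domain enters the nucleus, where it joins RBPJ and Mastermind proteins and switches on HES and HEY repressor genes. In blood vessels Notch1 and Notch4 are receptors of the endothelium, Notch3 is the main receptor of smooth muscle cells and pericytes (together called mural cells), Dll4 is the ligand of arterial and sprouting endothelium, and Jag1 carries signals from endothelium to mural cells.

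In the knockout hearts Notch3 rose 1.66-fold and Hey1 rose 1.45-fold, and no member fell by the test used. With 1 library left out at a time, the call of Hey1 was lost in 5 of 8 cases and that of Notch3 in 0 of 8. Notch1, Notch2, Jag1, Jag2 and Hes1 had lower means in the knockout but did not pass the test, and Notch4, Dll4 and Heyl differed by less than the spread between libraries. Thus 2 of 10 members were called higher and 0 lower at an adjusted p under 0.05 in limma, a linear model fitted to log2(FPKM + 1) of all 11390 genes whose mean reached 1 FPKM. FPKM is a fragment count scaled by transcript length and library size, so levels can be compared between genes. Over all tested genes 12.2% were called, 6.15% higher and 6.01% lower, a total of 1385 genes. That total was 1316 to 1373 under another scaling, pseudocount or variance model, 997 with a filter of at least 5 FPKM, 2028 with array weights, and 574 (wild type replicate 2 omitted) to 1819 (knockout replicate 1 omitted) with 7 libraries. The median log2 change of the members was -0.09 and that of all tested genes -0.01. At an unadjusted p under 0.05, 7 of 10 members differed, against 29.6% of all tested genes.

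Libraries differed in ways that the groups do not explain. The airway gene Scgb1a1 reached 1030.4 FPKM in replicate 4 of the wild type and no more than 0.323 FPKM elsewhere. The right atrial gene Bmp10 was between 49.6 and 141 FPKM in replicates 2 and 3 of each group and at most 1.12 FPKM in replicates 1 and 4. The Y-linked gene Ddx3y read 0.138 and 1.10 FPKM for replicates 2 and 3 of the wild type and 0.104 FPKM for knockout replicate 1, and 13.98 to 22.2 FPKM in the others. Knockout replicate 4 stood apart from the other knockout libraries on the second principal component of the tested genes (19% of the variance, 22 against -21.9 to -3.59), and its library number in the labels lies outside the close run of the others. Neither targeted gene had a lower knockout mean: Egln1 was at 52.9 ± 5.399 FPKM across wild type libraries, against 57.4 ± 4.73 FPKM across knockout libraries (SD, n = 4), and Egln3 at 28.2 ± 8.83 and 40.8 ± 8.58 FPKM. A gene-level value of a whole heart does not show an exon lost from endothelial cells, so the genotype rests on the labels.

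The sequences before the starts of Notch3, Notch1 and Notch2 are shown because the libraries of these 3 receptors did not overlap between the groups, Notch3 being higher and the others lower. They are the 250 bases upstream of each start in RefSeq, build GRCm38.p6 (mm10), at chr17:32166891-32167140 for Notch3 and chr2:26503823-26504072 for Notch1, both on the minus strand, and at chr3:98013288-98013537 on the plus strand for Notch2. The Notch1 stretch lies inside the longer gene model of GENCODE M21. Capitals mark matches, on either strand, to the HIF core letters ACGTG or GCGTG or to the HES and HEY box CACGCG.

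Notch3: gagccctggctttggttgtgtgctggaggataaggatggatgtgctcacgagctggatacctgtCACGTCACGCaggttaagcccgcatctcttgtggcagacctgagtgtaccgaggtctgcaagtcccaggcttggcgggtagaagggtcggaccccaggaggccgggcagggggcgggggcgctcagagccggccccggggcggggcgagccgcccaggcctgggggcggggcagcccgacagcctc

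Notch1: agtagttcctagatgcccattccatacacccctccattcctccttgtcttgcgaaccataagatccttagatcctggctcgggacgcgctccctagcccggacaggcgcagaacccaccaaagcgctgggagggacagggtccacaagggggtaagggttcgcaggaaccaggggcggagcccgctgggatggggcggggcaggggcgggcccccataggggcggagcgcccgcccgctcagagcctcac

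Notch2: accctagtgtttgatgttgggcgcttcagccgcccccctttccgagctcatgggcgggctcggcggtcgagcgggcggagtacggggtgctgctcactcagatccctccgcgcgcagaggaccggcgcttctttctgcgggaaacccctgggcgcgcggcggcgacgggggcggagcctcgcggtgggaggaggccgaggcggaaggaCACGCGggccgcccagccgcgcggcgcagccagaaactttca

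In Notch3 the capitals hold ACGTG on the reverse strand from 186 bases and GCGTG on the reverse strand from 181 bases before the start, and the upstream stretch of Notch1 has no match. In Notch2 they hold CACGCG from 42 bases before the start, with GCGTG on the reverse strand inside it. The table of promoters held 7 of the members (Notch1, Notch2, Notch3, Notch4, Dll4, Jag1 and Jag2), with windows that also take in the first 50 transcribed bases. In these windows ACGTG occurred in Notch3 alone, 1 of 7, against 19.6% of all 32851 promoter windows. GCGTG occurred in 7 of 7, against 32.4% of all windows, and Notch1 alone had no match before the start. The HES and HEY box CACGCG, which overlaps GCGTG on the other strand, occurred in 4 of 7 (Notch2, Dll4, Jag1 and Jag2), against 9.27%. The other box, CACGTG, which contains ACGTG, occurred in 0 of 7 (7.15% of all windows), and TGGGAA, the core bound by RBPJ, in 0 of 7 (25.6%). These are matches of letters in short windows that are rich in G and C, 68.8% upstream of Notch3, 66.0% upstream of Notch1 and 72.0% upstream of Notch2, and not measured binding sites.

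Among the receptors, Notch3 (chromosome 17, 32120820 to 32166852 in mm10) was the one that passed the test. Wild type replicates 1 to 4 gave 8.04, 7.39, 8.14 and 6.50 FPKM, against 11.1, 11.8, 12.2 and 14.8 FPKM in the knockout replicates, listed here and throughout in the order 1 to 4. Every knockout library lay above every wild type library, and knockout replicate 4 was the highest. Without that library the log2 change was 0.58 (adjusted p = 0.00543). The mean of all 4 went from 7.52 ± 0.753 to 12.5 ± 1.59 FPKM, a log2 change of 0.66 ± 0.10 (SE; 95% interval 0.43 to 0.89; limma adjusted p = 0.00485). An exact permutation test, two-sided, gave p = 0.0286, which is the smallest value possible with 4 against 4. This value restates that the groups did not overlap, which held for 20.7% of all tested genes. Notch1, Notch2, Jag1 and Hey1 had the same permutation p. With any single library left out the adjusted p was 0.00447 to 0.0218, and the call was lost only when a minimum change of 1.5-fold was required, a setting under which 37 genes of the whole table were called.

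Notch1 (chromosome 2, 26457903 to 26516663), the receptor needed for arterial fate and for restraint of sprouting, was at 7.09, 8.34, 7.56 and 7.40 FPKM across wild type libraries, against 6.69, 5.32, 6.43 and 4.52 FPKM across knockout libraries. All knockout values were below all wild type values, with knockout replicate 4 the lowest. The means were 7.60 ± 0.533 and 5.74 ± 1.01 FPKM (log2 change -0.36 ± 0.11; limma adjusted p = 0.0655), so the gene did not pass. It did without knockout replicate 1 (adjusted p = 0.0337) and with array weights, which give less weight to variable libraries (adjusted p = 0.0342). These were the 2 of its 21 alternatives that gave a call. With any single library left out the adjusted p was 0.0337 to 0.179.

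Notch2 (chromosome 3, 98013527 to 98150361), a receptor of many cell types including developing valves, was the lowest member. Its values were 2.94, 2.57, 2.83 and 2.73 FPKM across wild type libraries, against 2.29, 2.05, 2.46 and 2.01 FPKM across knockout libraries. The groups did not overlap, and the log2 change of -0.24 ± 0.08 did not pass (limma adjusted p = 0.0918). Notch4 (chromosome 17, 34564268 to 34588503), a receptor largely confined to endothelium, was at 9.07, 8.99, 8.07 and 8.75 FPKM across wild type libraries, against 10.7, 8.37, 9.19 and 10.8 FPKM across knockout libraries. Its groups overlapped, and the 95% interval of its log2 change was -0.07 to 0.35 (limma adjusted p = 0.340).

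**Figure D1:**
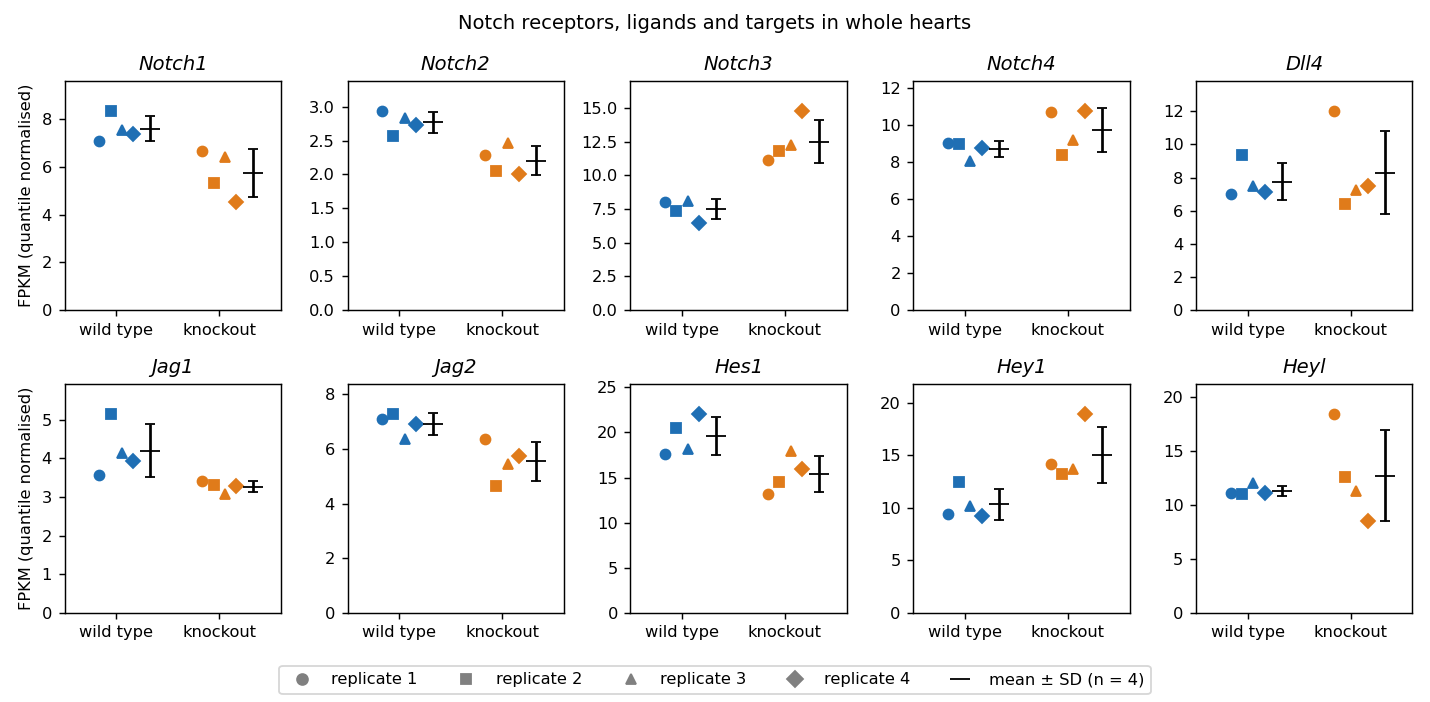
FPKM of the 10 Notch genes in every library, 1 panel a gene, each with its own linear axis from 0; blue symbols are wild type and orange symbols knockout libraries, the symbol shape gives the replicate number, and the black bar is the mean ± SD (n = 4). Notch3 and Hey1 lie higher and Notch1, Notch2 and Jag1 lower in every knockout library, while Dll4 and Heyl have a knockout replicate 1 far above the other knockout libraries (12.02 and 18.4 FPKM).

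The make-up of the receptor messages followed these values. Notch3 made up 29.6%, 27.1%, 30.6% and 25.6% of the summed FPKM of the 4 receptors in wild type replicates 1 to 4 and 36.2%, 42.9%, 40.3% and 46.1% in knockout replicates 1 to 4. The share of Notch1 was 28.6 ± 1.85% in wild type and 19.1 ± 3.49% in knockout hearts, and that of Notch2 was 10.4 ± 0.661% and 7.31 ± 0.771%. Neither share overlapped between the groups. The share of Notch4 was 32.8 ± 1.76% and 32.3 ± 2.24%, with overlap. The ratio of Notch3 to Notch1 was 0.879 to 1.13 in the wild type and 1.67 to 3.27 in the knockout libraries. The sum over the receptors was 25.4 to 27.3 FPKM across wild type libraries, against 27.5 to 32.1 FPKM across knockout libraries. These shares are descriptions of the members and were given no test.

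**Figure D2:**
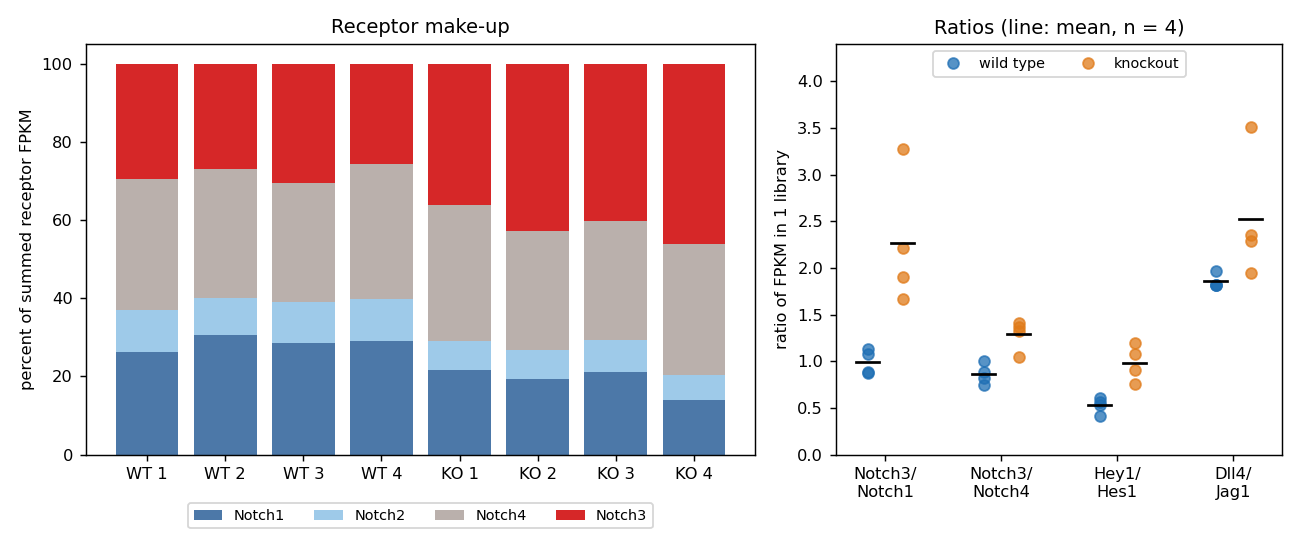
Left, the percent of the summed FPKM of the 4 receptors held by each receptor in every library (WT, wild type; KO, knockout; the number is the replicate). Right, ratios of FPKM between 2 members within a library, each point 1 library and the line the mean of 4; the Notch3 share is 25.6 to 30.6% in wild type and 36.2 to 46.1% in knockout libraries, and the ratios of Notch3 to Notch1, Notch3 to Notch4 and Hey1 to Hes1 do not overlap between the groups.

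None of the ligands passed the test. Jag1 (chromosome 2, 137081456 to 137116644) was at 3.56, 5.16, 4.13 and 3.92 FPKM across wild type libraries, against 3.42, 3.31, 3.08 and 3.28 FPKM across knockout libraries. The knockout values were tightly grouped just under the lowest wild type library. The log2 change was -0.27 ± 0.10 (limma adjusted p = 0.105).

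Jag2 (chromosome 12, 112907819 to 112929776), the second Jagged ligand, was at 7.10, 7.30, 6.35 and 6.91 FPKM across wild type libraries, against 6.36, 4.63, 5.46 and 5.74 FPKM across knockout libraries. Knockout replicate 1 reached the lowest wild type library, so the groups overlapped. The log2 change was -0.28 ± 0.10 (limma adjusted p = 0.0845), and it passed without knockout replicate 1 (adjusted p = 0.0416) and with array weights (adjusted p = 0.0424).

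Dll4 (chromosome 2, 119325784 to 119335962) was at 6.997, 9.37, 7.52 and 7.14 FPKM across wild type libraries, against 12.02, 6.43, 7.24 and 7.51 FPKM across knockout libraries. Knockout replicate 1 stood above all other libraries and the other knockout libraries lay within or just under the wild type range. The log2 change was 0.06 ± 0.17, with a 95% interval of -0.32 to 0.44 (limma adjusted p = 0.846). It was -0.11 without knockout replicate 1 and -0.013 with array weights, so no direction can be given. The highest Dll4 library of each group, wild type replicate 2 and knockout replicate 1, was also the library of lowest Ddx3y in its group. With Ddx3y as a covariate the log2 change of Dll4 was 0.18 (adjusted p = 0.297), and the part of that covariate in the result was not otherwise tested. Within the ligands, Dll4 made up 39.6 to 42.9% of summed FPKM across wild type libraries, against 44.8 to 55.1% in knockout hearts, which did not overlap.

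Among the targets, Hey1 (chromosome 3, 8663359 to 8667256), a repressor induced by Notch in arterial endothelium and in atrial muscle, rose. It was at 9.41, 12.5, 10.2 and 9.18 FPKM across wild type libraries, against 14.2, 13.2, 13.7 and 19.0 FPKM across knockout libraries. All knockout libraries were above all wild type libraries, by a small margin between wild type replicate 2 and knockout replicate 2, and knockout replicate 4 was the highest. The mean went from 10.3 ± 1.51 to 15.01 ± 2.67 FPKM, a log2 change of 0.50 ± 0.13 (limma adjusted p = 0.0378; exact two-sided permutation p = 0.0286). Of the 8 omissions of a library, 5 ended the call: wild type replicate 1 (adjusted p = 0.0831), 3 (0.0818) or 4 (0.0974) or knockout replicate 2 (0.0548) or 3 (0.0610), while the log2 change stayed between 0.38 and 0.58. It was also lost without both replicates 4 (adjusted p = 0.0916) and with the Bmp10 level as a covariate (adjusted p = 0.0565).

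Hes1 (chromosome 16, 30064384 to 30067796), a target of Notch in many tissues and the most abundant member, had a lower knockout mean and did not pass the test. It was at 17.6, 20.5, 18.2 and 22.1 FPKM across wild type libraries, against 13.2, 14.5, 17.9 and 15.9 FPKM across knockout libraries. Knockout replicate 3 reached the range of the wild type libraries and the other knockout libraries lay under it. The log2 change was -0.33 ± 0.11 (limma adjusted p = 0.0750). The ratio of Hey1 to Hes1 was 0.415 to 0.609 in wild type and 0.761 to 1.19 in knockout libraries. That of Hey1 to Heyl was 0.825 to 1.13 and 0.770 to 2.23, with overlap, so the separation depends on the gene chosen.

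Heyl (chromosome 4, 123233556 to 123249875), a HEY family gene of mural cells and endothelium, was at 11.1, 11.04, 11.99 and 11.1 FPKM across wild type libraries, against 18.4, 12.6, 11.3 and 8.49 FPKM across knockout libraries. The wild type libraries were close together and the knockout libraries spread to either side, with a coefficient of variation of 4.02% against 33.03%. The log2 change was 0.11 ± 0.18 (limma adjusted p = 0.734), and it was -0.079 without knockout replicate 1 and 0.27 without knockout replicate 4.

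**Figure D3:**
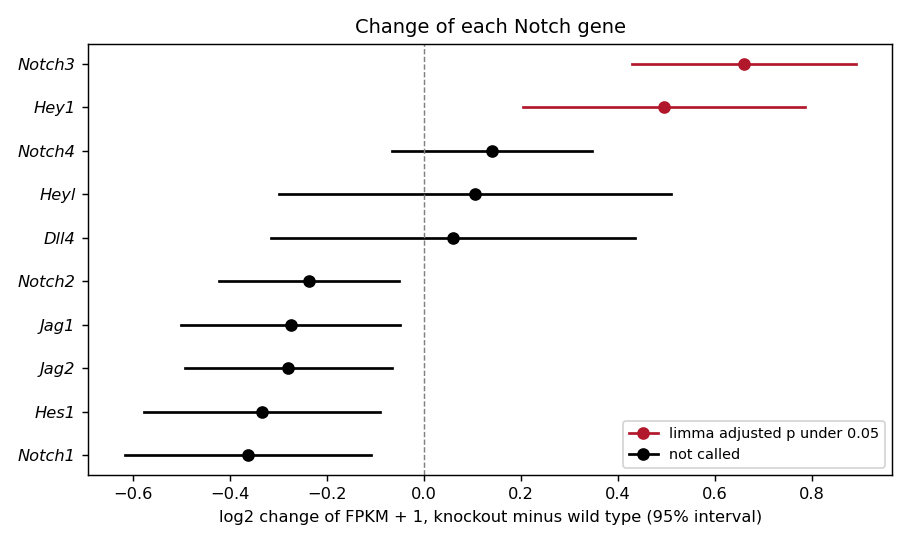
Log2 change of FPKM + 1, knockout minus wild type, for the 10 Notch genes in order of size; points are limma estimates from 4 against 4 libraries, bars are 95% intervals not adjusted for the number of genes, and red marks an adjusted p under 0.05. Notch3 (0.66) and Hey1 (0.50) pass, and the intervals of Notch1, Hes1, Jag2, Jag1 and Notch2 lie under 0 although none of them passes after adjustment.

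Without overlap between the groups were 5 of 10 members, 2 higher (Notch3 and Hey1) and 3 lower (Notch1, Notch2 and Jag1), against 20.7% of all tested genes, 10.3% higher and 10.4% lower. In level, the wild type members ranged from 2.77 ± 0.154 FPKM for Notch2 to 19.6 ± 2.09 FPKM for Hes1, at the 19.4th and 74.1st percentile of wild type means of tested genes. The wild type order after Hes1 was Heyl, Hey1, Notch4, Dll4, Notch1, Notch3, Jag2, Jag1 and Notch2. Heyl and Hey1 overlapped, as did each neighbouring pair from Notch4 to Jag2, and the other neighbours were apart. In the knockout the order was Hes1, Hey1, Heyl, Notch3, Notch4, Dll4, Notch1, Jag2, Jag1 and Notch2, where each neighbouring pair from Hes1 to Notch3 and from Notch4 to Jag2 overlapped. Notch3 was thus the seventh member by level in wild type and the fourth in knockout hearts.

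Of 62 other genes of the pathway, 52 were tested, and 2 rose, 2 fell and 48 did not pass, or 4 of 52 against 12.2% of all tested genes. The ligand gene Dll1 and the glycosyltransferase gene Lfng fell. Lunatic fringe, the product of Lfng, adds sugars to Notch receptors that favour Delta-like over Jagged ligands. Lfng was at 7.62, 6.06, 4.803 and 6.48 FPKM across wild type libraries, against 3.84, 3.86, 3.58 and 3.28 FPKM across knockout libraries, without overlap. Its mean was 1.71-fold lower in the knockout (log2 change -0.63 ± 0.12, limma adjusted p = 0.0110, and 0.00796 to 0.0381 with a library left out).

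Dll1, a Delta-like ligand of arterial endothelium, was low in all libraries, at 2.18, 1.94, 1.77 and 1.92 FPKM across wild type libraries, against 0.916, 0.558, 1.37 and 0.689 FPKM across knockout libraries. It fell with no overlap between the groups (log2 change -0.67 ± 0.13, limma adjusted p = 0.0133, and 0.00530 to 0.0447 with a library left out). The paralogs of Lfng were not called: Mfng, which encodes manic fringe, was at 8.54 ± 1.42 FPKM across wild type libraries, against 8.69 ± 1.23 FPKM across knockout libraries. Whether Lfng and Mfng changed by different amounts was not tested.

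The genes that rose were Cdkn1a and Bhlhe40, both in the list of other targets and both also targets of pathways other than Notch. Cdkn1a, the cell cycle inhibitor p21, was at 50.5, 33.4, 31.0 and 30.2 FPKM across wild type libraries, against 69.8, 70.9, 67.2 and 95.2 FPKM across knockout libraries (log2 change 1.06 ± 0.17, limma adjusted p = 0.00551). Bhlhe40, a repressor related to the HES and HEY proteins and known to respond to hypoxia, rose from 12.7 ± 2.34 to 23.0 ± 7.39 FPKM (log2 change 0.78 ± 0.20, limma adjusted p = 0.0373). The gene was no longer called without any 1 of the wild type replicates or without knockout replicate 2 (adjusted p up to 0.0893). Nrarp and Hey2 were not called. Nrarp, a feedback inhibitor of Notch, was at 7.27 ± 1.49 and 6.44 ± 1.78 FPKM, and Hey2, a target of arterial endothelium and ventricular muscle, at 2.12 ± 0.469 and 2.81 ± 0.692 FPKM (limma adjusted p = 0.564 and 0.221). The highest Nrarp libraries were those with the highest Dll4, wild type replicate 2 (9.13 FPKM) and knockout replicate 1 (9.07 FPKM).

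Apart from the glycosylation genes, of which 1 of 5 fell (Lfng), no gene of the machinery between ligand and target was called, against 12.2% of all tested genes. Of the genes for receptor cleavage 0 of 9 tested passed, of those for ubiquitination and endocytosis 0 of 11, and of those for the nuclear complex 0 of 15. The DNA-binding partner Rbpj was at 7.34 ± 0.558 FPKM across wild type libraries, against 7.93 ± 0.867 FPKM across knockout libraries (95% interval of the log2 change -0.11 to 0.30). For Adam10, the protease of the first activating cut, the interval was -0.16 to 0.29. Numb, an inhibitor of Notch, was at 13.3 ± 0.744 and 11.5 ± 0.814 FPKM without overlap and did not pass (limma adjusted p = 0.125). Hes2, Hes3 and Hes5 were listed at 0 in every library.

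**Figure D4:**
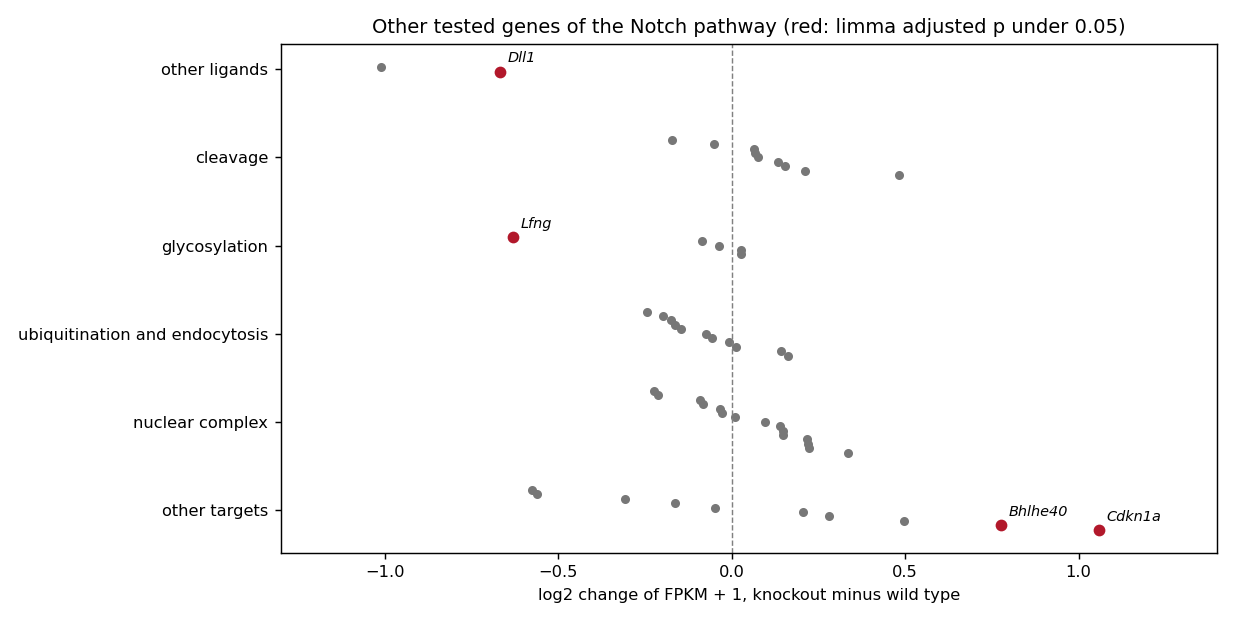
Log2 change of FPKM + 1, knockout minus wild type, for the 52 tested genes of the Notch pathway outside the 10 members, grouped by role; each point is 1 gene and red points passed an adjusted p under 0.05 in limma. The passing genes are Dll1 (-0.67) among ligands, Lfng (-0.63) among glycosylation genes, and Bhlhe40 (0.78) and Cdkn1a (1.06) among targets, and the other 48 genes, Dlk1 among them at -1.01 (adjusted p = 0.0513), did not pass.

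The member genes are read from different cells of the heart, and in bulk tissue fewer cells of a type and less RNA per cell cannot be told apart. Among 12 mural cell markers 3 rose and 0 fell, against 6.15% and 6.01% of all tested genes. Their log2 changes were split evenly, 6 above and 6 below 0 with a median of 0.02, and their summed level was 1053 to 1519 FPKM across wild type libraries, against 1196 to 1448 FPKM across knockout libraries. The largest terms of that sum were Acta2, named after its values were seen (585 ± 204 and 449 ± 163 FPKM), and Des (313 ± 12.9 and 405 ± 48.5 FPKM). The sum therefore mostly follows these genes and is no measure of mural cell content. Ndufa4l2, a mitochondrial protein gene of pericytes that is also induced by HIF, rose 2.03-fold (log2 change 0.997 ± 0.12, limma adjusted p = 0.00148). Tagln, an actin-binding protein of smooth muscle, rose 1.78-fold (limma adjusted p = 0.0119), and Des, the intermediate filament desmin of muscle cells, rose 1.30-fold (limma adjusted p = 0.0325, not called without any 1 of the wild type replicates or without knockout replicate 2, with an adjusted p up to 0.0971). The defining pericyte genes Pdgfrb and Rgs5, named after their values were seen, were not called: Pdgfrb was at 22.0 ± 1.33 FPKM across wild type libraries, against 22.8 ± 2.20 FPKM across knockout libraries, and Rgs5 at 219 ± 1.35 and 247 ± 30.5 FPKM. Kcnj8, a potassium channel gene of pericytes also named after its value was seen, had a lower knockout mean, 23.5 ± 1.68 and 15.8 ± 6.31 FPKM, and was not called (limma adjusted p = 0.0896), but passed as lower without knockout replicate 1 (0.00427) and with array weights (0.0358).

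Set against these markers within each library, Notch3 was 0.291 to 0.390 of the Pdgfrb level in wild type and 0.429 to 0.682 of it in knockout libraries, without overlap. Against Rgs5 the ratio was 0.0298 to 0.0371 and 0.0437 to 0.0552, also without overlap. Against Tagln it was 0.186 to 0.338 and 0.161 to 0.268, and against Ndufa4l2 0.248 to 0.391 and 0.204 to 0.344, and both of these overlapped. Tagln and Ndufa4l2 had been named by their p, and Pdgfrb and Rgs5 after their values were seen. Whether a ratio overlaps therefore depends on the marker chosen. The part of mural cell content in the rise of Notch3 was not tested.

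Among 12 pan-endothelial markers 0 rose and 3 fell, against 6.15% and 6.01% of all tested genes, and their summed level was 596 to 711 FPKM across wild type libraries, against 532 to 632 FPKM across knockout libraries. Those that fell were the angiopoietin receptor Tek (limma adjusted p = 0.00779), its relative Tie1 (0.00202) and the guidance receptor Robo4 (0.0117), with log2 changes of -0.57, -0.62 and -0.63. The junction genes Pecam1 and Cdh5 differed in opposite directions without passing (log2 changes 0.24 and -0.24). Levels were also expressed relative to the mean log2 level of the 12 markers, the 3 that fell among them. This moves the median change of all genes from -0.01 to 0.23. On this scale the log2 change was 0.90 for Notch3, 0.73 for Hey1, 0.38 for Notch4, 0.34 for Heyl and 0.30 for Dll4. It was 0.00 for Notch2, -0.04 for Jag1 and Jag2, -0.09 for Hes1 and -0.12 for Notch1. A test against 0 on this scale holds the common shift, so no call is taken from it. Against single markers, the ratio of Notch1 to Pecam1 was lower without overlap, while that to Cdh5 overlapped. The ratio of Hey1 to Cdh5 was higher without overlap, while that to Pecam1 overlapped.

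Of 10 arterial markers, a fate that endothelial Notch promotes, 2 rose and 1 fell, against 6.15% and 6.01% of all tested genes, and 6 of the 10 had log2 changes below 0 (median -0.13). Unc5b, a netrin receptor of arterial endothelium, rose from 9.48 ± 0.629 to 15.1 ± 2.26 FPKM (log2 change 0.61 ± 0.10, limma adjusted p = 0.00668), and Stmn2 rose 1.83-fold (limma adjusted p = 0.0195; 0.0572, and so not called, without knockout replicate 2). Efnb2, the arterial ephrin ligand, was at 11.5 ± 1.19 and 9.07 ± 0.732 FPKM (limma adjusted p = 0.0499), a call that held without knockout replicate 1 (0.0337) and was lost in the 7 other omissions (adjusted p up to 0.137). Of 4 tested venous markers Vwf rose 3.04-fold (limma adjusted p = 0.00755) and Ephb4, the receptor for Efnb2, was 0.817 times the wild type level (limma adjusted p = 0.0341, not called without any 1 of the wild type replicates, knockout replicate 1 or knockout replicate 2, with an adjusted p up to 0.0988).

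Some markers of other heart cells were also called, against 6.15% higher and 6.01% lower of all tested genes. Of 6 atrial and 5 tested macrophage markers, 0 rose and 0 fell. The atrial log2 changes were 3 above and 3 below 0, and some were large. Nppa was 2.91-fold higher in the knockout without overlap (limma adjusted p = 0.0580). Sln was 0.565 times the wild type level, with overlap (limma adjusted p = 0.114). Of 6 fibroblast markers 0 rose and 3 fell, and their summed level was 691 to 774 FPKM in wild type hearts and 367 to 523 FPKM in knockout hearts, without overlap. The matrix genes that fell were Dcn (log2 change -0.56, limma adjusted p = 0.00476), Dpt (-1.11, 0.0127) and Lum (-0.80, 0.0366), and the call of Lum held with all libraries and without knockout replicate 1 or 4 and was lost in the 6 other omissions (adjusted p up to 0.0886). Of 5 epicardial markers 2 rose and 0 fell. Upk3b, Msln and Upk1b, named after their values were seen, were not called (log2 changes -0.42, 0.04 and 0.34). Wt1, a transcription factor of the epicardium, rose 2.41-fold (limma adjusted p = 0.000421). The keratin gene Krt19 rose 3.74-fold (limma adjusted p = 0.0260), a call that held without wild type replicate 4 or knockout replicate 3 and was lost in the 6 other omissions (adjusted p up to 0.0735), and wild type replicate 4, the library with the airway gene, was the highest wild type library (19.7 FPKM). Of 6 cardiomyocyte markers 1 fell, Tnni3 (limma adjusted p = 0.0169, but 0.0519 and so not called without knockout replicate 2), and 2 had log2 changes above 0. After quantile normalisation the values of Tnni3 are set by its rank (99.8th percentile of wild type means), so this is a fall in rank. Of 6 endocardial markers 1 fell, Cytl1 (limma adjusted p = 0.0120), and 2 had log2 changes above 0. The part of these cell types in the values of the Notch genes was not tested.

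**Figure D5:**
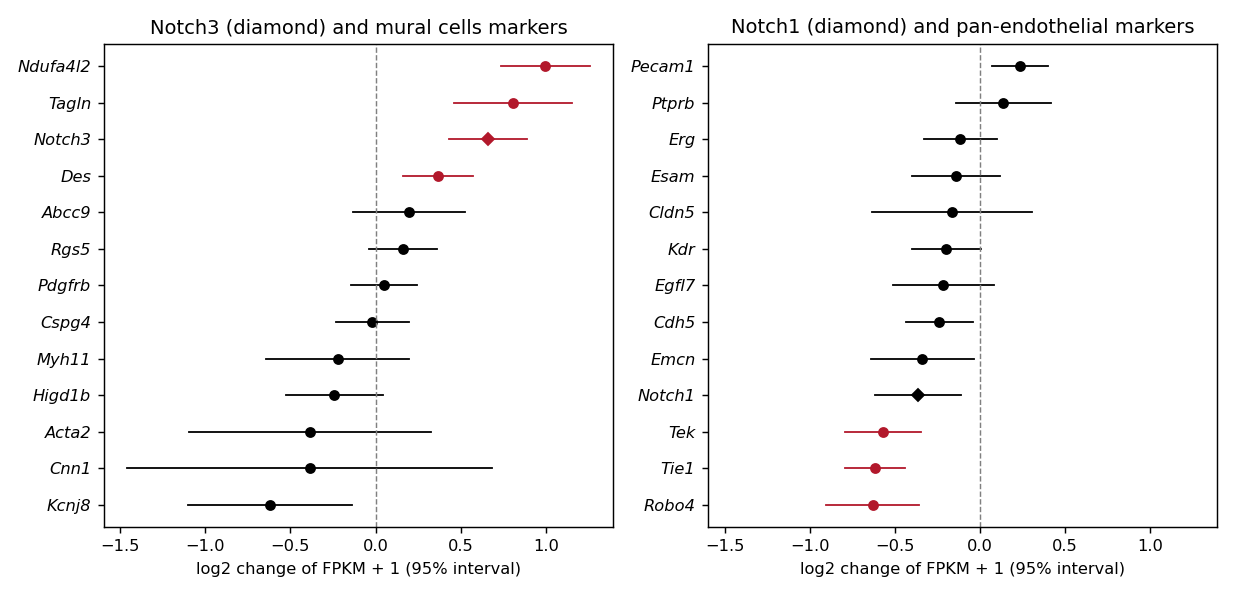
Log2 change of FPKM + 1, knockout minus wild type, with 95% intervals, for the 12 mural cell markers with Notch3 (left) and the 12 pan-endothelial markers with Notch1 (right), sorted by size; the diamond is the Notch receptor and red marks a limma adjusted p under 0.05. Notch3 (0.66) lies among the 3 called genes of the mural list, Ndufa4l2, Tagln and Des, of which Des is a gene of muscle cells in general. It lies above the 9 that were not called, such as Rgs5 (0.16), Pdgfrb (0.05) and Cspg4 (-0.02). Notch1 (-0.36) lies between the 3 called endothelial markers, of which Tek (-0.57) is the nearest, and the others.

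The genes whose levels were most like those of a member were found by Pearson's r of log2(FPKM + 1) over the 8 libraries, for the 3 members with the smallest p. These r values span both groups, so they carry the difference between groups as well as the spread within them, and they are descriptions. For Notch3 they were Mtmr9 (r = 0.994), Pdk1, a kinase that inhibits pyruvate dehydrogenase (r = 0.990), and Uba3 (r = 0.988). Pdk1 was at 17.0 to 21.2 FPKM across wild type libraries, against 30.3, 34.2, 35.3 and 44.6 FPKM across knockout libraries, the same order of knockout libraries as for Notch3. For Hey1 they were the prostaglandin receptor gene Ptger1 (r = 0.985), 2510039O18Rik (r = 0.976) and Ppp1r13l (r = 0.972). For Notch1 they were Chtop (r = 0.994), Impdh2 (r = 0.985) and Puf60 (r = 0.984), of which Chtop and Impdh2 have roles in messenger RNA export and guanine nucleotide synthesis.

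Annotated genes overlap several members, and whether reads were counted by strand is not given in the sources used here. In GENCODE M21, on the same build, antisense or opposite-strand genes share 488 exonic bases with Notch3 (Gm17276), 1068 and 414 with Notch1 (0610009E02Rik and Gm13568) and 214 with Dll4 (Gm14207), and Gm42820 shares 541 with Notch2 on the same strand. Reads of these pairs cannot be told apart here. No annotated gene overlaps Jag1, Hes1, Hey1 or Heyl.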

How the data were processed

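Whole-heart RNA was purified with a Qiagen kit and sequenced from Illumina TruSeq libraries, per the labels' protocols. The submitters' processing notes name TopHat2, Cufflinks and mm10 without versions. The authors deposited 1 table with a column per library. Its unit is not named, and it was read as FPKM, the output of Cufflinks, since the values are fractional. The deposited FPKM were quantile normalised: the 39 highest ranks held the same value in all 8 columns, so depth and counting error are unknown.

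Grouping followed the labels. Genes whose mean reached 1 FPKM were compared as log2(FPKM + 1) with limma 3.58.1 under R 4.3.3 (trend and robust options, no covariate), with Benjamini-Hochberg adjustment over all 11390 genes. Members were also compared by 10 unadjusted exact permutation tests, each over 70 assignments (Python 3.11.15). On simulated data for this comparison, with 11390 genes, limma recovered 52.2% of the 67 genes altered 1.5-fold, 89.6% of 67 at 2-fold and 98.5% of 66 at 4-fold, and 11 of its 171 calls were false. The simulation altered far fewer genes than were called in the data and drew independent noise for each gene. Its rates therefore need not hold for the real libraries. Other Notch genes and cell markers came from hand-made lists, and from these were named the called pathway genes and a few set pathway genes, and up to 3 markers a list by p; others are marked as chosen later. The members, lists and alternatives were chosen with earlier results of these data known. Alternatives changed the pseudocount, filter, scaling, variance model, weights, threshold, covariates and replicate block or left libraries out; the Bmp10 covariate was added after seeing the data. Promoters are from RefSeq (GRCm38.p6) and gene coordinates from GENCODE M21.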

Additional observations from a re-analysis of the deposited data

Results flagged for a closer look

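In groups of 4 libraries, a library was singled out when its gap to the nearest other passed Dixon's 95% critical value as a share of the group's range, which chance gives in about 1 in 20 groups. Among 84 groups, of 42 named genes in wild type and in knockout, 12 met this. For the members only Heyl did, with wild type replicate 3 at 11.99 FPKM, against 11.1 FPKM in the nearest library. Hey2 was high in wild type replicate 2 (2.82 FPKM) and in knockout replicate 4 (3.83 FPKM), and Cdkn1a in wild type replicate 1 (50.5 FPKM) and knockout replicate 4 (95.2 FPKM). Numb was low in knockout replicate 2 (10.3 FPKM) and Bhlhe40 in wild type replicate 4 (9.23 FPKM). Of the cell markers, Tie1 (35.0 FPKM) and Tagln (24.1 FPKM) were low in wild type replicate 3, Dpt (115 FPKM) in wild type replicate 1 and Krt19 (21.7 FPKM) in knockout replicate 3, and Krt19 was high in wild type replicate 4 (19.7 FPKM). The causes were not tested.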

How the results depend on the processing

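The rise of Notch3 and its call held under all alternatives except a minimum change of 1.5-fold, which left 37 genes called over the table, 0 members higher and 0 other pathway genes in either direction. The replicate numbers did not pair the samples (correlations of deviations of same-numbered libraries of -0.226, 0.00930, 0.102 and -0.0966), and with a replicate block 613 genes and 1 member (Notch3) were called, Hey1 having an adjusted p of 0.105; Des (0.0966), Efnb2 (0.117), Ephb4 (0.102), Lum (0.0727) and Tnni3 (0.0524) also lost their calls. Hey1 was also not called with no filter (1 member and 1 other pathway gene higher), without both replicates 4 (1 member) or with the Bmp10 covariate (1 member and 1 other pathway gene higher). With a filter of at least 5 FPKM, 0 other pathway genes were lower because Dll1 and Lfng were not tested. With array weights 2028 genes were called, and 2 members, Notch1 and Jag2, were lower. Omission of 1 library gave 574 called genes (wild type replicate 2) to 1819 (knockout replicate 1), among them 838 and 742 for wild type replicates 3 and 4 and 759 and 896 for knockout replicates 2 and 3, with 1 to 2 members higher, 0 to 2 lower (2 without knockout replicate 1), and 1 to 3 other pathway genes higher and 2 to 3 lower. The signs of small log2 changes turned. Omissions moved Dll4 from -0.11 (knockout replicate 1) to 0.16, Heyl from -0.079 (knockout replicate 1) to 0.27, Mfng from -0.043 (knockout replicate 4, and also below 0 for wild type replicates 1 and 3 and knockout replicate 1) to 0.11, and Pdgfrb from -0.013 (knockout replicate 1) to 0.085. Dll4 was at -0.013 with array weights and Notch2 at 0.00199 relative to the endothelial markers. Apart from these constructions the cause was not tested. Depth is unknown, so the counting error of low genes such as Notch2 and Dll1 cannot be given.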
